A study of Mus musculus with 8 samples.

Results

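Collagens were examined as every gene whose symbol consists of Col, a number, the letter a and a number. The count files held 44 such genes among 49315, and 40 of them were in the deposited normalized table of 16889 genes, so 40 collagen genes are described. The remaining 4 (*Col6a4*, *Col6a5*, *Col9a1* and *Col19a1*) had at most 16 counts in any library and were not tested. Collagens are triple helices of chains from many genes that form the scaffold of the extracellular matrix. Fibrillar collagens give tissues tensile strength, type IV collagen is the sheet-forming network of basement membranes, and multiplexins such as types XV and XVIII lie at the edge of the basement membrane and carry glycosaminoglycan chains. In brain vessels the basement membrane lies between the endothelium, the pericytes and the astrocyte endfeet, and its type IV chains are made by endothelial cells (ECs) among others, while fibrils come mostly from fibroblasts and smooth muscle of larger vessels and meninges.

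The libraries came from brain ECs of mouse pups, 1 library per pup, with 4 mutant and 4 wild-type pups. The mutant group, labelled Map2k1 K57N, carried *R26* GT-Map2k1-GFP/+ and *Tg-Cdh5CreER* +/-, so that tamoxifen removed a stop cassette from the *Rosa* locus and a CAG promoter then drove a constitutively active MAP2K1 (p.K57N), a kinase that phosphorylates ERK, together with GFP. The second group was labelled wild type, and the sources differ on whether a control carried the Cre transgene. Litters of both groups received tamoxifen on postnatal day 1 and brains were taken on day 9, from lines backcrossed to C57BL/6J. Cre activity followed the *Cdh5* promoter, only part of the brain ECs of a mutant pup carried the recombined allele, and no group expressed wild-type MAP2K1 from the *Rosa* locus. Cells were released with collagenase and captured with beads against CD31, an endothelial surface protein, so the values below are of RNA from a bulk of captured cells, in which fewer cells of a type and less RNA per cell cannot be told apart.

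Counts on genes summed to between 24833373 and 34196955 per mutant library and between 28146348 and 32208421 per wild-type library. *Map2k1*, whose mutant form was expressed from the *Rosa* locus, lay between 12660 and 18687 normalized counts in the mutant libraries and between 1502 and 1758 in the wild-type libraries. These counts do not separate the *Rosa* copy from the gene's own alleles. None of the 10 endothelial markers was at 0, and their summed normalized counts were 362629 to 439353 in mutant and 341184 to 413553 in wild-type libraries. Of these 10, *Cdh5*, whose promoter drives the Cre transgene, was called higher (1.11), and at an adjusted p under 0.05 alone 3 were higher (with *Pecam1*, 0.53, and *Emcn*, 0.82) and 3 lower (*Kdr*, -0.59, *Cldn5*, -0.47, and *Tek*, -0.44), as log2 fold changes. Markers of other cells were also present at lower sums. Those of oligodendrocytes were lower in mutant libraries (6 of 6 genes called lower, sums of 1280.0 to 2272 against 3208 to 9035), as were those of neurons (6 of the 7 tested, sums of 572 to 854 against 1035 to 3162) and 2 of 5 choroid plexus markers (sums of 1507 to 6317 against 3068 to 17854). The remaining neuron marker tested, *Rbfox3*, went the other way (log2 fold change 1.19) and did not pass. No smooth muscle, astrocyte or microglia marker was called in either direction. At an adjusted p under 0.05 alone, the smooth muscle markers *Tagln* (0.73) and *Smtn* (0.29) were higher. Among astrocyte markers *Gja1* (0.80) was higher and *Aldh1l1* (-0.96) lower. The astrocyte sums were 18980 to 22423 in mutant and 11391.5 to 13498 in wild-type libraries, of which *Gja1* alone gave 17352 to 21645 and 9787 to 11827. The median log2 fold change of the 7 astrocyte markers was -0.40. Apart from *Gja1* and *Gfap* (0.24), each of them had a negative log2 fold change. The part of these cells in the collagen values was not tested.

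Each gene was compared between the groups with edgeR's quasi-likelihood test over 16887 genes, and is called here at a Benjamini-Hochberg adjusted p under 0.05 with an absolute log2 fold change (mutant over wild type) over 1. Such p-values measure only the spread between these pups. Of the 40 collagens, all of which were tested, 12 were called, which is 30.0% beside 14.0% of all genes tested. The called collagens were mainly higher in mutant ECs: 9 were higher (5.90% of all genes were) and 3 were lower (8.05% of all genes were). With no limit on the fold change, 18 were higher and 7 lower at an adjusted p under 0.05, together 62.5% beside 44.4% of all genes (21.5% higher and 22.9% lower), and 15 did not pass. For 21 collagens (52.5%, beside 42.5% of all genes) every mutant library lay on the same side of every wild-type library. The median log2 fold change was 0.34 over the collagens and -0.025 over all genes tested.

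**Figure D1:**
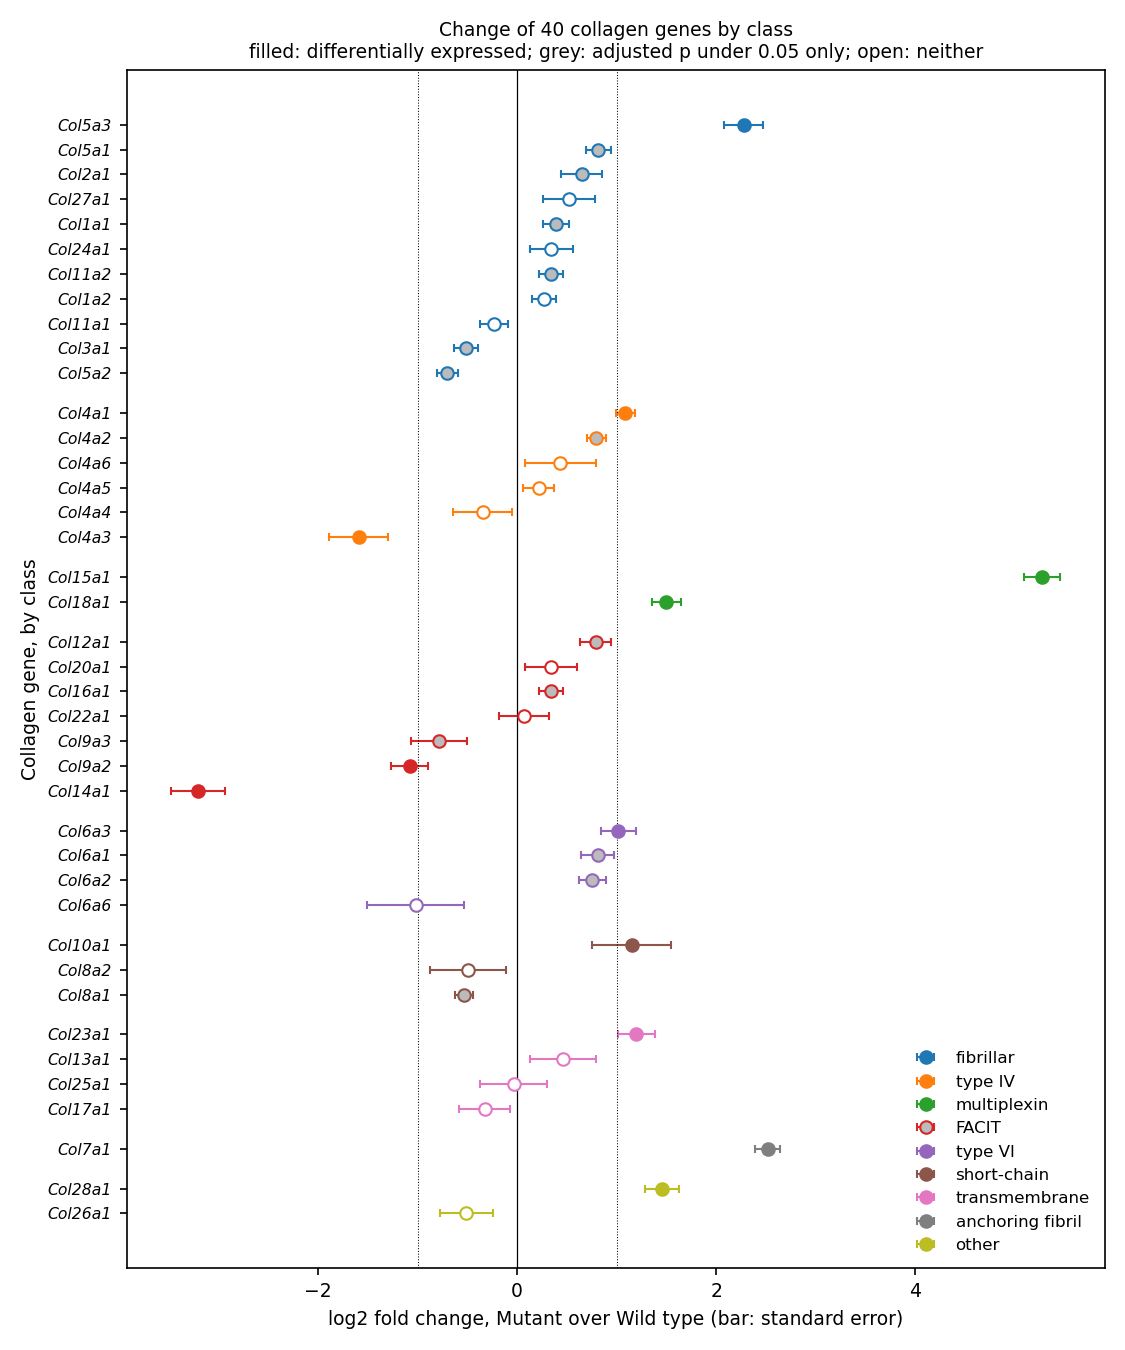
Log2 fold change (mutant over wild type, edgeR) of the 40 collagens, 1 point per gene with its standard error, grouped by collagen class. Points filled in the class colour were called, grey points had an adjusted p under 0.05 only, and open points neither. Dotted lines mark a log2 fold change of 1 in either direction. The points run from -3.21 for *Col14a1* to 5.28 for *Col15a1*, and most fibrillar chains lie inside the dotted lines.

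By class, both multiplexins were called higher, with a median log2 fold change of 3.39. Of 6 type IV chains, 1 was called higher and 1 lower, and of 11 fibrillar chains 1 was called higher and none lower. The 7 fibril-associated collagens (FACITs), which decorate the surface of fibrils, had none called higher and 2 called lower. Type VI (4 chains), the short-chain network collagens (3), the transmembrane collagens (4) and the pair of other collagens had 1 member each called higher. *Col7a1*, the chain of anchoring fibrils, stands alone in its class and was called higher.

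The multiplexins had the largest median change of the classes. *Col15a1* (ENSMUSG00000028339, on chromosome 4 from 47208161 to 47313167 of GRCm38 as the count files give it, plus strand) encodes the chain of type XV collagen, a proteoglycan that links basement membranes to the fibrils beneath. It had 87605, 58269, 49941 and 62738 normalized counts in mutant libraries 1 to 4 and 1660.2, 1866, 1593 and 1552 in wild-type libraries 1 to 4. The lowest mutant library lay far above every wild-type library, and the fold between the groups was 38.8 (log2 fold change 5.28 ± 0.18 SE, adjusted p = 1.27e-07). *Col18a1*, whose protein is the source of endostatin, had 68229, 50103, 42912 and 61212 normalized counts in mutant and 20942, 20156, 16871 and 20662 in wild-type libraries. Its groups did not overlap either (log2 fold change 1.50 ± 0.14 SE, adjusted p = 3.24e-05). Among mutant pups replicate 1 was the highest and replicate 3 the lowest for both genes, while the 4 wild-type pups lay close together. Per length, *Col15a1* stood at 33.4 ± 2.65 TPM (counts scaled by gene length and then by library, computed here with the lengths in the files, SD, n = 4) in wild-type and 1236 ± 280.2 in mutant ECs, and *Col18a1* at 356 ± 23.8 and 963 ± 179. In rank of TPM among all genes, *Col15a1* moved from 5065th to 84th and *Col18a1* from 435th to 127th.

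Because *Col15a1* carried the largest change and *Col4a1* and *Col4a2* the most RNA, the promoters of these genes are printed together with those of *Col7a1* and *Col5a3*, the next largest rises. Each runs 5′ to 3′ on the strand of the gene from 250 bases before the RefSeq start site to 50 after it (RefSeq, GRCm38.p6), and capitals mark matches, on either strand, to the GC box GGGCGG, the letters CCAAT, the AP-1 motif TGANTCA, the ETS core CCGGAA or TATAAA, none of which overlapped in these windows.
*Col15a1*, chr4:47207762-47208061, plus strand: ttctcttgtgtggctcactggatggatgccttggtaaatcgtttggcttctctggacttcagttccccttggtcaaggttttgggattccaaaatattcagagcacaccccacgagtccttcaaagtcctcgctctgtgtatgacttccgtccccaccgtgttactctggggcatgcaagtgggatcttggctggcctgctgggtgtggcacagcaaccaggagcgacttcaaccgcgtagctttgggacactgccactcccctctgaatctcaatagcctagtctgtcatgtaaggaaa
*Col4a1*, chr8:11312777-11313076, minus strand: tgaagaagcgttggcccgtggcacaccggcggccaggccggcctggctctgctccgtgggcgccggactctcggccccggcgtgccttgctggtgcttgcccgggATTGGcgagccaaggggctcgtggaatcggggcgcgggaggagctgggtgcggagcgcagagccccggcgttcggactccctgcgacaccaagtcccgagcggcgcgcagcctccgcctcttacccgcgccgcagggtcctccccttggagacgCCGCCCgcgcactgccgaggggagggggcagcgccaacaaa
*Col4a2*, chr8:11312555-11312854, plus strand: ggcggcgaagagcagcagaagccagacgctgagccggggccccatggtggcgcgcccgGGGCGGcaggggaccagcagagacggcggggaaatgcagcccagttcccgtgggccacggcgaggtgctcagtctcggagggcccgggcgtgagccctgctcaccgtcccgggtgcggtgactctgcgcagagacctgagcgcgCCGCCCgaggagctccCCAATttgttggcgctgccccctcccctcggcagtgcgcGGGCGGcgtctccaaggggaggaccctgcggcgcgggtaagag
*Col7a1*, chr9:108953336-108953635, plus strand: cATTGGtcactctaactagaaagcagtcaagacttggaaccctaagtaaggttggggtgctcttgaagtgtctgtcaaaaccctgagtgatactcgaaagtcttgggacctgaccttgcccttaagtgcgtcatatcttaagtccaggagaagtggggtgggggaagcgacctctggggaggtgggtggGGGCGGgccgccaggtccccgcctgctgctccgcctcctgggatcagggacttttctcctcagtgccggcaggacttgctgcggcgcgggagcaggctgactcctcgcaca
*Col5a3*, chr9:20815018-20815317, minus strand: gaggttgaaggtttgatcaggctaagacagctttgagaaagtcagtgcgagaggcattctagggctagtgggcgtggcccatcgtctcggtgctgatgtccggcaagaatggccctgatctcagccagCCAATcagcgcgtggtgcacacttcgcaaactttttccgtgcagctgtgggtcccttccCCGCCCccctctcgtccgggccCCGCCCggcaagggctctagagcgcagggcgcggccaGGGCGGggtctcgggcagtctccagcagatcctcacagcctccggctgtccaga

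The *Col15a1* window held none of the 5 motifs, and the other 4 windows each held at least 1 GC box and 1 CCAAT. The *Col15a1* window ends at 47208061, before the start of the gene at 47208161 in the count files, and so does not cover that start. Among the collagens, 31 of 40 matched a RefSeq promoter, giving 33 windows. A GC box was found in 21 of these 33 (63.6%) beside 35.7% of 32851 mouse promoters of this length, CCAAT in 11 (33.3%) beside 37.4%, and TATAAA in 5 (15.2%) beside 13.6%. The AP-1 motif was found in 1, that of *Col6a1* (3.03% beside 7.81%), and the ETS core in none (14.9% of all promoters). The windows were not all distinct. *Col6a2* and *Col18a1* were counted with an extra window each, and the windows of *Col4a1* and *Col4a2* hold the same GC box in their 78 shared bases. The GC content of the collagen windows ran from 37.7% to 75% and was not matched in these shares. These matches describe the letters of the windows and say nothing of binding.

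Type IV collagen is the main network of the basement membrane, and *Col4a1* and *Col4a2* encode the chains found in basement membranes throughout the body. *Col4a1* (ENSMUSG00000031502, on chromosome 8 from 11198423 to 11312826, minus strand) had 243139, 224056, 196304 and 214189 normalized counts in mutant and 104955, 111727, 92594 and 103675 in wild-type libraries. *Col4a2* had 209228, 189839, 164097 and 187100.0 in mutant and 110067, 116908, 95449 and 109489 in wild-type libraries. For both chains every mutant library lay above every wild-type library. *Col4a1* was called higher (log2 fold change 1.09 ± 0.095 SE, adjusted p = 1.95e-05), and *Col4a2* rose by less than the limit on the fold change (log2 fold change 0.80 ± 0.099 SE, adjusted p = 0.000153). At 3579 ± 248 TPM in mutant ECs, *Col4a1* was the 13th most abundant gene (54th in wild type, 1759.7 ± 93.3 TPM), and *Col4a2* the 15th (40th in wild type), at 3449 ± 275 against 2075 ± 121 TPM.

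Of the 4 rarer type IV chains 1 was called, in the other direction. *Col4a3*, a chain of the network of kidney glomeruli and alveoli, had 101, 182, 187 and 67.7 normalized counts in mutant and 462, 453, 296 and 406 in wild-type libraries. The groups did not overlap and it was called lower (log2 fold change -1.59 ± 0.30 SE, adjusted p = 0.00164). *Col4a4* and *Col4a5*, its partners in that network, had log2 fold changes of -0.35 and 0.22 and did not pass the test (adjusted p = 0.368 and 0.292), nor did *Col4a6* (0.43, adjusted p = 0.347). Of the exonic bases of *Col4a3*, 5.65% overlap another gene, C430014B12Rik, which had 187 counts in all.

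The type IV chains lie in head-to-head pairs. *Col4a1* and *Col4a2* start on opposite strands with their first 22 bases in common, and the printed windows share 78 identical bases, from 11312777 to 11312854 of chromosome 8. This pair moved the same way. *Col4a4* and *Col4a3* start 71 bases apart on chromosome 1, and of these only *Col4a3* passed the test, a difference between the 2 genes that was itself not tested. *Col4a6* and *Col4a5*, 1308 bases apart on chromosome X, did not pass. *Col3a1* and *Col5a2*, which lie tail to tail 24614 bases apart, were both lower, and *Col6a2* and *Col6a1*, 85161 bases apart on the same strand, were both higher. *Col6a1* and *Col18a1*, 326009 bases apart on the same strand, were also both higher. *Col9a3* and *Col20a1*, 364345 bases apart on the same strand, differed in sign, with *Col9a3* lower (-0.78, adjusted p = 0.0442) and *Col20a1* not passing (0.34, adjusted p = 0.317).

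Counted together, collagens took up a larger share of the counts in mutant ECs. As CPM, counts scaled to a common library total, they summed to 21223 in mutant library 1, 18889 in 2, 17566 in 3 and 19433 in 4, against 9596, 10366, 9206 and 9661 in wild-type libraries 1 to 4. The groups did not overlap, and the means of 1.93% and 0.971% of counts stand in a ratio of 1.99. No p is given for a sum over chosen members. Without *Col15a1* the ratio was 1.78. Few genes made up the gain in CPM: *Col4a1* gave 38.7% of it, *Col4a2* 26.0%, *Col15a1* 21.7% and *Col18a1* 12.1%, and the other 36 collagens together gave 1.42%. The composition moved with it, since *Col4a1* and *Col4a2* went from 74.7% ± 1.04 (SD, n = 4) of collagen counts in wild type to 69.8% ± 1.65 in mutant, and *Col15a1* from 0.591% ± 0.0353 to 11.0% ± 1.54. Counts favour long transcripts, so these are shares of reads and not of molecules.

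**Figure D2:**
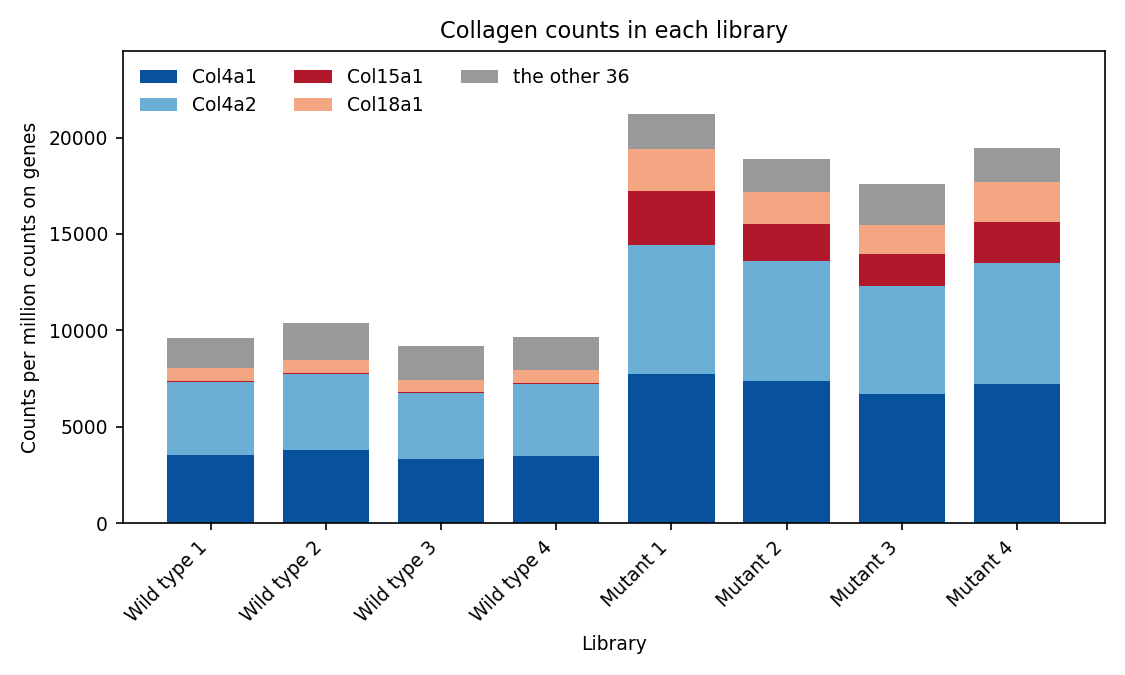
Collagen counts (CPM) in each of the 8 libraries, stacked by gene or group of genes. The 4 mutant bars reach 17566 to 21223 and the 4 wild-type bars 9206 to 10366, and the *Col15a1* segment is barely visible in wild type.

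*Col7a1* encodes the chain of the anchoring fibrils that fasten epidermal basement membrane to the dermis. It had 3357, 3177, 2642 and 3316 normalized counts in mutant and 503, 683, 524 and 470.2 in wild-type libraries. No library of one group came near the other (5.73-fold, log2 fold change 2.52 ± 0.13 SE, adjusted p = 6.99e-07). *Col28a1*, a collagen flanked by von Willebrand factor A domains and known from peripheral nerve, had 384, 274, 318 and 458 in mutant and 122, 143, 141 and 116 in wild-type libraries. *Col23a1*, a transmembrane collagen that is shed from the cell surface, had 293, 194, 243 and 241 in mutant and 111, 103, 130.2 and 77.8 in wild-type libraries. Both were higher in every mutant library than in any wild-type library (*Col28a1*: log2 fold change 1.46 ± 0.17 SE, adjusted p = 0.000112; *Col23a1*: log2 fold change 1.20 ± 0.19 SE, adjusted p = 0.000542). *Col13a1*, the transmembrane collagen of highest TPM over the 8 libraries together (4.98 ± 2.94 in mutant and 3.81 ± 0.747 in wild type, against 5.15 ± 0.774 and 2.35 ± 0.549 for *Col23a1*), had 145, 108, 148 and 349 normalized counts in mutant and 109, 126, 159.5 and 155 in wild-type libraries. Its groups overlapped and it did not pass (log2 fold change 0.46 ± 0.33 SE, adjusted p = 0.284); mutant replicate 4 alone was high, and without it the log2 fold change was -0.014. *Col17a1*, *Col25a1* and *Col26a1* also did not pass, at log2 fold changes of -0.33, -0.04 and -0.51.

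**Figure D3:**
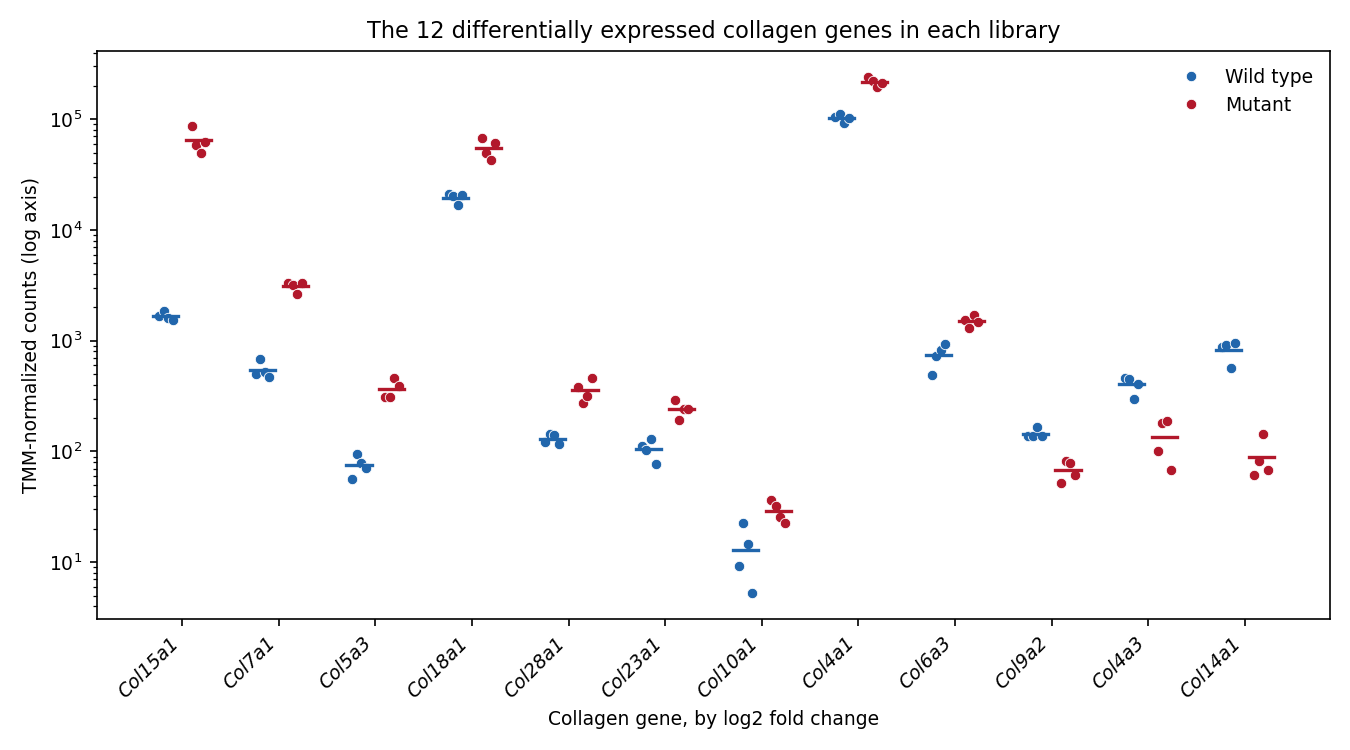
Normalized counts (log axis) of the 12 called collagens in each of the 4 mutant and 4 wild-type libraries, 1 point per library with a line at the group mean. The groups do not overlap for any of the 12, and the distance between them is widest for *Col15a1* and *Col14a1*.

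Most fibrillar chains changed by less than the limit on the fold change, and in both directions. *Col5a3*, a minor type V chain, was the member called (4.85-fold, log2 fold change 2.28 ± 0.19 SE, adjusted p = 1.59e-05). Its normalized counts were 309, 308, 458 and 389 in mutant and 57.0, 94.7, 78.5 and 71.5 in wild-type libraries, with a gap between the groups larger than the range of either. *Col1a1*, a chain of type I collagen and the fibrillar chain of highest TPM (312 ± 33.0 in mutant, 249.5 ± 44.8 in wild type), had 18730.1, 15892, 18152 and 14591 normalized counts in mutant and 11018, 16289, 12227 and 11889 in wild-type libraries. Here the groups overlapped, because wild-type library 2 exceeded 2 mutant libraries, and the small difference passed the test on p alone (log2 fold change 0.39 ± 0.13 SE, adjusted p = 0.0319). Its partner *Col1a2* did not pass (log2 fold change 0.27 ± 0.12 SE, adjusted p = 0.0976). Smaller rises at an adjusted p under 0.05 were those of *Col5a1* (0.82), *Col2a1* (0.65) and *Col11a2* (0.34), given as log2 fold changes. *Col3a1*, the chain of type III collagen, and *Col5a2* fell by 0.51 and 0.70 on the log2 scale (adjusted p = 0.00627 and 0.00045), and *Col11a1*, *Col24a1* and *Col27a1* did not pass (-0.23, 0.34 and 0.52).

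Fibroblasts express these chains. Of 10 fibroblast markers, all above 0, *Pdgfra* (-1.03) and *Fbln1* (-1.16) were called lower and none higher. At an adjusted p under 0.05 alone 4 were lower, with *Lama1* (-0.83) and *Islr* (-0.80), and 2 were higher, *Lum* (0.67) and *Fmod* (0.42), both proteoglycans that bind fibrils. Their summed normalized counts were 6082 to 8840 in mutant and 10594 to 12710 in wild-type libraries. *Lama1* held the most of these counts (3279 to 5451 in mutant and 6290 to 8439 in wild type). The median log2 fold change of the 10 markers was 0.20. *Abcc9* was the pericyte marker called, higher with a log2 fold change of 1.78, and the pericyte sums overlapped (25187 to 40233 against 21622 to 40802). At an adjusted p under 0.05 alone *Kcnj8* (0.81) was also higher, and no pericyte marker was lower. The median log2 fold change of the 10 pericyte markers was 0.11. What these cells contributed to the fibrillar values was not tested.

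FACITs held the largest fall. *Col14a1*, type XIV collagen, which binds to the surface of fibrils, had 61.9, 81.6, 145 and 68.6 normalized counts in mutant and 881, 908, 565 and 948 in wild-type libraries. It was 9.24-fold lower in mutant ECs without overlap (log2 fold change -3.21 ± 0.27 SE, adjusted p = 1.55e-05). In wild-type ECs it was the FACIT of highest TPM (14.9 ± 2.82), and in mutant ECs (1.56 ± 0.686) 5 of the other 6 FACITs stood above it, led by *Col16a1* (8.68 ± 1.12). Replicate 3 was the highest mutant and the lowest wild-type library for *Col14a1*. *Col9a2*, a chain of type IX collagen known from cartilage, had 51.8, 81.6, 78.5 and 61.6 in mutant and 137, 139, 167 and 137 in wild-type libraries, and was lower (log2 fold change -1.08 ± 0.18 SE, adjusted p = 0.00091), although without mutant replicate 1 its log2 fold change of -0.95 was inside the limit. *Col9a3* fell by 0.78 (adjusted p = 0.0442) with overlapping groups, and 6.07% of its exonic bases overlap *Tcfl5*. *Col12a1*, a FACIT closely related to *Col14a1*, rose (log2 fold change 0.79 ± 0.16 SE, adjusted p = 0.0027), as did *Col16a1* (0.34, adjusted p = 0.0414). *Col20a1* and *Col22a1* did not pass.

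The 3 common chains of type VI collagen, which forms beaded microfilaments around cells, rose together. *Col6a1* had 1601, 1362, 1657 and 1410.0 normalized counts in mutant and 564, 888, 936 and 1057 in wild-type libraries, without overlap (log2 fold change 0.81 ± 0.16 SE, adjusted p = 0.00273). *Col6a2* changed by 0.76 (adjusted p = 0.00141). *Col6a3* had 1552, 1310.3, 1717 and 1462 in mutant and 488, 728, 832 and 937 in wild-type libraries and was called (log2 fold change 1.02 ± 0.17 SE, adjusted p = 0.000968). That call lies at the limit: its log2 fold change was 0.96 without mutant replicate 3 and 0.88 without wild-type replicate 1. *Col6a6*, a chain of low counts, had 22.7, 56.3, 91.7 and 17.4 in mutant and 133, 113, 80.2 and 53.6 in wild-type libraries, with overlap, and did not pass (log2 fold change -1.02 ± 0.48 SE, adjusted p = 0.11), but was called lower with the first characters of the library codes as a block (-1.12, adjusted p = 0.0353), with the replicate number as a block (-1.15, adjusted p = 0.0457) and without mutant replicate 3 (-1.56, adjusted p = 0.0205).

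Among short-chain collagens, *Col8a1*, a chain of the type VIII network of vessel walls and cornea, fell without overlap (log2 fold change -0.53 ± 0.091 SE, adjusted p = 0.000986), from 1006, 1005, 853 and 972 normalized counts in wild-type to 599, 722, 631 and 702 in mutant libraries. *Col8a2* did not pass (-0.49, adjusted p = 0.317), with wild-type replicate 3 at 248 and the other 3 wild-type libraries between 73.6 and 83.4. *Col10a1*, the collagen of hypertrophic cartilage, had 36.6, 32.0, 25.4 and 22.6 in mutant and 9.19, 22.5, 14.7 and 5.26 in wild-type libraries, the lowest total of the 40. Its call (log2 fold change 1.15 ± 0.40 SE, adjusted p = 0.0371) held without mutant replicate 4 or wild-type replicate 2 and was lost without any other single library, where the adjusted p lay between 0.0526 and 0.0947. Its exons share 0.575% of their bases with *Nt5dc1*, a gene with 2570 counts in all.

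Whether chains changed by unequal amounts was measured as the log2 ratio of their counts per length in each library (pseudocount 0.5), for 5 pairs of chains of the same collagen type and for the multiplexins, which are chains of different types. *Col4a1* to *Col4a2* stood at 0.054 ± 0.027 (SD, n = 4) in mutant and -0.24 ± 0.015 in wild type, so that *Col4a2* was the more abundant chain in each wild-type library and *Col4a1* in each mutant library. *Col5a1* to *Col5a2* rose from -3.14 ± 0.40 to -1.61 ± 0.15, as *Col5a1* went up and *Col5a2* down. Between the types, *Col15a1* to *Col18a1* rose from -3.41 ± 0.16 to 0.35 ± 0.13. For these 3 ratios the groups did not overlap, with p = 0.0286 in an exact two-sided permutation test, the smallest that 4 against 4 libraries allow, and 0.0571 after Benjamini-Hochberg adjustment over the 6 ratios. The ratios of *Col1a1* to *Col1a2* (1.28 ± 0.087 against 1.16 ± 0.12, exact permutation p = 0.171, adjusted 0.257), *Col6a1* to *Col6a2* (1.16 ± 0.045 against 1.10 ± 0.15, p = 0.486, adjusted 0.583) and *Col8a1* to *Col8a2* (2.76 ± 0.19 against 3.01 ± 0.94, p = 0.714, adjusted 0.714) overlapped between the groups. The sign of a ratio depends on the gene lengths used, and the difference between the groups does not.

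**Figure D4:**
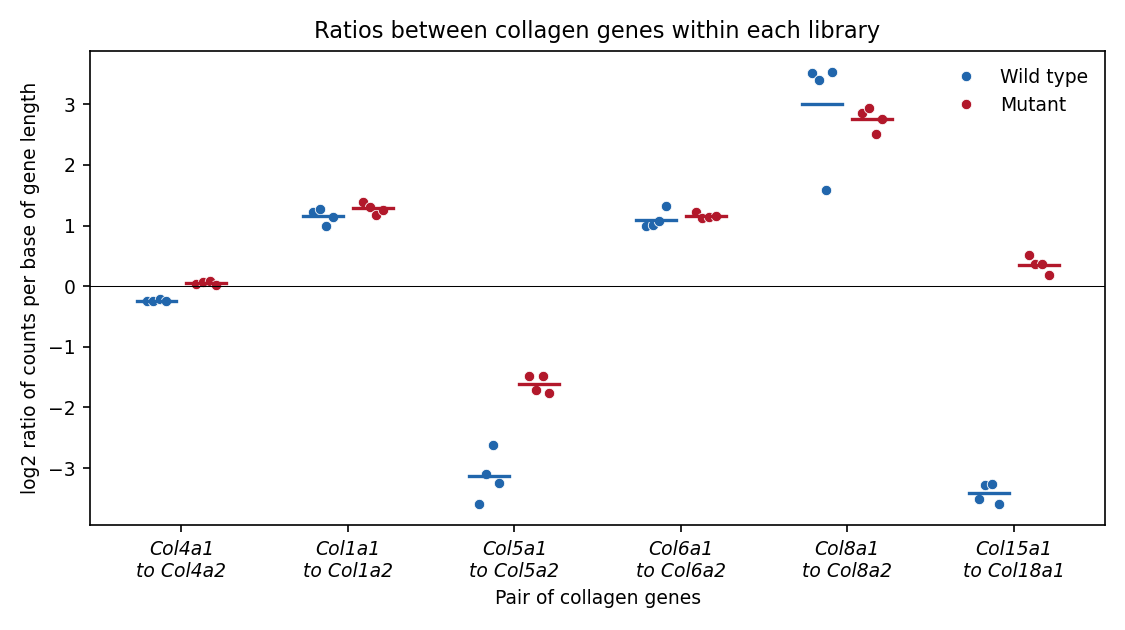
Log2 ratio of counts per length for 6 pairs of chains, 1 point per library, mutant against wild type. The groups are apart for *Col4a1* to *Col4a2*, *Col5a1* to *Col5a2* and *Col15a1* to *Col18a1* and overlap for the other 3 pairs.

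Collagen chains are hydroxylated and folded in the endoplasmic reticulum, exported, trimmed and cross-linked with the help of enzymes, chaperones and transport proteins. Of 36 such genes 35 were tested, 9 were called higher and 2 lower (31.4%, beside 14.0% of all genes), 23 were higher and 2 lower at an adjusted p under 0.05, and the median log2 fold change was 0.51. *Tll1*, a tolloid protease that removes C-propeptides, had 1706, 954, 903 and 1577 normalized counts in mutant and 236, 220.3, 188 and 224 in wild-type libraries (log2 fold change 2.57 ± 0.21 SE, adjusted p = 1.52e-05). *P4ha3*, a subunit of prolyl 4-hydroxylase, had 135, 120.2, 222 and 175 in mutant and 29.4, 30.0, 25.0 and 42.1 in wild-type libraries (log2 fold change 2.37 ± 0.25 SE, adjusted p = 5.65e-05). *Loxl2*, which cross-links type IV collagen, had 2374, 2319.5, 2225 and 2173 in mutant and 419.9, 519, 539 and 513 in wild-type libraries (log2 fold change 2.19 ± 0.088 SE, adjusted p = 2.12e-07). None of these genes overlapped between the groups. *Pxdn*, the peroxidase that forms sulfilimine bonds between type IV molecules, had 38501, 30539.8, 25234 and 29149.5 in mutant and 7739, 7678, 7349 and 7414 in wild-type libraries (log2 fold change 2.03 ± 0.12 SE, adjusted p = 1.77e-06). *P3h2*, a prolyl 3-hydroxylase, had 825, 397, 461 and 498 in mutant and 153, 196, 199 and 178 in wild-type libraries (log2 fold change 1.58 ± 0.22 SE, adjusted p = 0.000254).

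Among synthesis genes, *Colgalt2*, a collagen galactosyltransferase, was the largest fall, with 313, 468, 534 and 322 normalized counts in mutant and 1498, 1582, 1473 and 1733 in wild-type libraries (log2 fold change -1.94 ± 0.17 SE, adjusted p = 1.62e-05). Its paralog *Colgalt1* did not pass (0.04, adjusted p = 0.781). *Adamts2* (1.13), *Sec23a* (1.10), *Fkbp10* (1.09) and *P3h3* (1.04) were also called higher, a propeptide protease, a COPII coat subunit, a chaperone and a prolyl 3-hydroxylase, with log2 fold changes in parentheses. *Lox*, the cross-linking enzyme of fibrils, was lower (-1.03). Both *P3h3* and *Lox* lay near the limit: *P3h3* came to 0.96 without mutant replicate 1 and 0.98 without wild-type replicate 2, and *Lox* to between -0.99 and -0.84 without mutant replicate 1 or 4 or wild-type replicate 1 or 4. *Bmp1* (0.99) missed the limit and passed it without mutant replicate 2 or 3 or wild-type replicate 2 or 3 (1.00 to 1.08), and *Adamts14* (0.88) passed it without wild-type replicate 3 (1.07). *Tll2* was too low to test.

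Of 18 genes for collagen receptors and collagen turnover 17 were tested, with *Gp6* too low, and 2 were called higher and 1 lower (17.6%, beside 14.0%), 7 and 3 at an adjusted p under 0.05, with a median log2 fold change of 0.38. *Itga2*, the collagen-binding integrin subunit, had 2397, 2031, 1953 and 1999.6 normalized counts in mutant and 432, 366, 350.1 and 410.2 in wild-type libraries (log2 fold change 2.43 ± 0.099 SE, adjusted p = 2.21e-07). *Mmp14*, a membrane-bound collagenase, had 11502, 7482, 6857 and 7917 in mutant and 2325, 2354, 2300.0 and 2218 in wild-type libraries (log2 fold change 1.88 ± 0.15 SE, adjusted p = 9.57e-06). For both genes the lowest mutant library lay far above the highest wild-type library. *Itga1*, the other collagen-binding subunit common in ECs, fell by 0.40 (adjusted p = 0.0189), and their shared partner *Itgb1* rose (0.39, adjusted p = 0.00423). *Ddr1*, a collagen-activated kinase, had 119, 146, 201 and 170.2 in mutant and 376, 295, 605 and 188 in wild-type libraries, with overlap between the groups (log2 fold change -1.20 ± 0.31 SE, adjusted p = 0.0103), and came to -0.85 without wild-type replicate 3. *Mmp9* (0.93) missed the limit and came to between 1.00 and 1.01 without mutant replicate 1 or 4 or wild-type replicate 3.

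**Figure D5:**
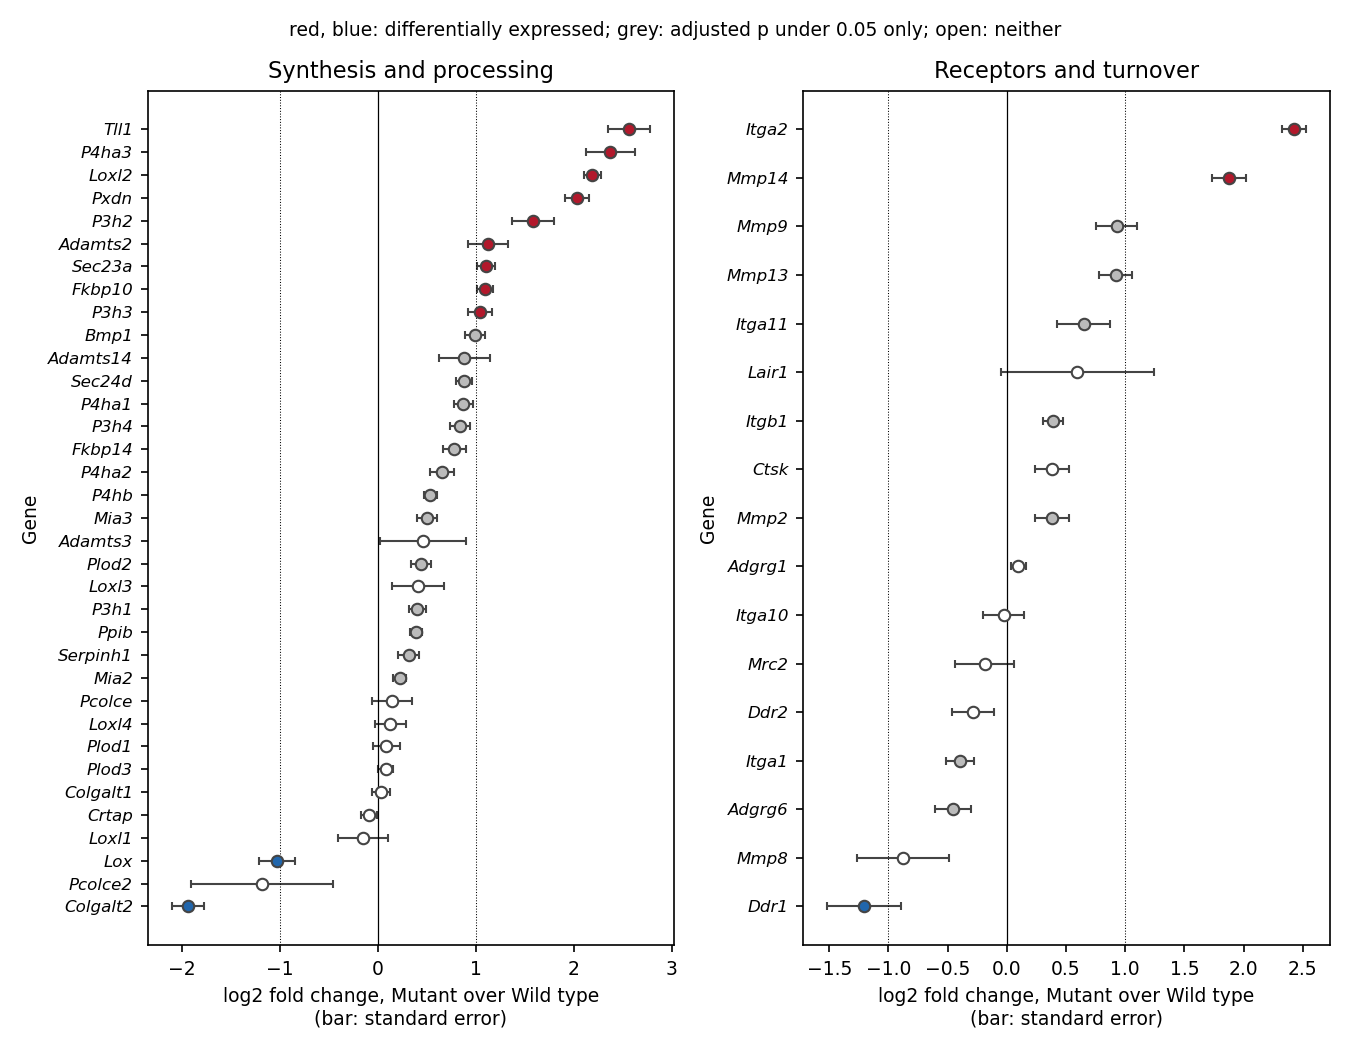
Log2 fold change (mutant over wild type, edgeR) with its standard error for the 35 synthesis genes and 17 receptor and turnover genes tested. Red and blue points were called higher and lower, grey points had an adjusted p under 0.05 only, and open points neither. The points run from -1.94 (*Colgalt2*) to 2.57 (*Tll1*).

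The first characters of the library codes put replicates 1 and 2 of both groups in one set, replicate 3 in the next and replicate 4 in the last. By the study's methods, wild-type pups were drawn at random from the litters of the mutant pups in matching numbers. The example given there, 2 mutant and 2 wild-type pups of litter 1, has the numbers of the first set. No source says that the codes mark litters, and this was not tested. Deviations from the group means correlated at 0.0241 to 0.29 between mutant and wild-type libraries of the same set, and at -0.358 to 0.384 across sets. Among the 25 collagens with an adjusted p under 0.05, log2 fold changes taken within each set varied most for *Col4a3* (-2.57 to -0.66) and *Col14a1* (-3.78 to -1.96), against 4.97 to 5.37 for *Col15a1* and 1.05 to 1.11 for *Col4a1*. With 1 mutant and 1 wild-type library in the last 2 sets, no test within them was made.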

How the data were processed

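Brain ECs of 4 mutant and 4 wild-type pups gave 1 poly(A) RNA library each. The authors trimmed reads, mapped them to GRCm38 with STAR and deposited whole-number counts per gene, and a normalized signal, the counts of a library over its DESeq2 size factor. Multiplied by that factor, which was taken from the counts, 100% of the signal values came out whole within 0.01 and equal to the counts. The count test on these recovered reads is therefore the test on the counts of the 16889 genes of the normalized table. It called 12 collagens and 2406 genes. The counting program, annotation release and use of strand are not given in the sources used here, which leaves genes with overlapping exons uncertain. Of 49315 identifiers 48970 matched a symbol (16850 of 16889 in the normalized table).

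The test was edgeR 4.0.16 under R 4.3.3 (TMM, filterByExpr with a minimum count of 10, glmQLFit and glmQLFTest without covariates, Benjamini-Hochberg adjustment over 16887 genes). The SE of a log2 fold change is its size divided by the square root of F. Normalized counts given per library are the counts scaled by TMM to the mean library size, not the deposited normalized values. Folds are the edgeR log2 fold changes put on a linear scale. Chain ratios were tested by exact two-sided permutation. Per-library values are given for each collagen called and for the one of highest counts per kilobase in each class, and for at most 6 genes of each further list. The fibroblast and pericyte markers named beside a result, the library values of *Col6a6*, and the named synthesis and receptor genes that were not called (*Colgalt1*, *Bmp1*, *Adamts14*, *Itga1*, *Itgb1* and *Mmp9*) were picked with their values known. The members and lists were chosen with earlier results of these data known. Libraries of a group differed by more than sampling noise (chi-square per degree of freedom 7.25 to 41.6 over 12 pairs), so each counts as 1 replicate. At these depths, the spread between pups limits precision, except for collagens of few counts. The scripts were tested on simulated data. Alternatives were DESeq2 1.42.0, RLE factors or library size alone, other filters, a test against a log2 fold change of 1, the replicate number or the library-code set as a block, and each library left out. The recovered reads were added after seeing the data.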

Additional observations from a re-analysis of the deposited data

Results flagged for a closer look

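In groups of 4 libraries, a library was marked when its gap to the nearest of the others exceeded Dixon's 95% limit for the share of its group's range, which chance does in about 5% of groups. Of 110 groups tested, 10 were marked. Mutant library 3 was the high one for *Col3a1* (6404 normalized counts, the others 4422 to 4549), *Col5a1* (1847, the others 1469 to 1502), *Col27a1* (485, the others 353 to 372) and *Col4a6* (63.0, the others 40.8 to 42.9), and for the summed FACITs (76.5 CPM, the others 60.8 to 63.5). Wild-type library 3 was high for *Col9a2* (167, the others 137 to 139) and *Col8a2* (248, the others 73.6 to 83.4), and its log2 ratio of *Col8a1* to *Col8a2* was therefore low (1.59, the others 3.40 to 3.53). Wild-type library 1 was low for *Col6a2* (540.2, the others 807 to 843). Mutant library 4 was high for *Col13a1* (349, the others 108 to 148). Both libraries numbered 3 also had the highest summed microglia and macrophage markers of their groups (8369 and 10915 normalized counts) and the highest choroid plexus markers (6317 and 17854). The part of these cells in the values was not tested.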

How the results depend on the processing

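Of 12 called collagens all 12 were called again by DESeq2, with RLE factors and without a filter. The recovered reads equal the deposited counts, so their 12 calls are no separate check. Tested against a log2 fold change of 1, 4 remained higher (*Col15a1*, *Col7a1*, *Col5a3* and *Col18a1*) and 1 lower (*Col14a1*); synthesis genes fell to 4 higher and 1 lower, and receptor genes called lower to 0. On adjusted p alone, 18 collagens were higher and 7 lower, with 23 synthesis genes higher, and 7 receptor genes higher and 3 lower. *Col6a3* lost its call with library size alone (11 called), and *Col6a3* and *Col10a1* when genes under a mean of 100 normalized counts were dropped (10 called of the 31 then tested). Leaving out each library in turn gave 7 to 9 collagens higher and 2 to 4 lower, 8 to 11 synthesis genes higher and 1 to 2 lower (1 without mutant replicate 1 or 4 or wild-type replicate 1 or 4), and 2 to 3 receptor genes higher and 0 to 1 lower (0 without wild-type replicate 3). The collagen ratio of 1.99 moved between 1.92 and 2.04, and without *Col15a1* was 1.78. *Col13a1*, never called, ranged from -0.014 (without mutant replicate 4) to 0.65. Differences in chain ratio kept their sign: 3.71 to 3.82 for *Col15a1* to *Col18a1*, 1.38 to 1.70 for *Col5a1* to *Col5a2*, 0.28 to 0.30 for *Col4a1* to *Col4a2*, 0.070 to 0.16 for *Col1a1* to *Col1a2*, 0.029 to 0.14 for *Col6a1* to *Col6a2* and -0.72 to -0.071 for *Col8a1* to *Col8a2*. Same-numbered libraries deviated together with correlations of 0.201, 0.21, 0.29 and 0.0241, the last under 0.1, and no source ties a number to a litter, so the numbers were not taken as pairs; mutant library 4 correlated best with wild-type library 3 (0.384). With the replicate block, and with the library-code sets as a block, 13 collagens were called, 9 higher and 4 lower, *Col6a6* being the addition; neither block changed a call among the synthesis and receptor genes. Where a cause is not named it was not tested. The 4 untested collagens had too few counts for a test.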
